A study of Mus musculus with 24 samples.

Results

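The effect of the mother's vitamin D diet was examined in male pups that were themselves fed the low diet after weaning. HL mice, whose mothers were fed the high diet during pregnancy and lactation, were compared with LL mice, whose mothers were fed the low diet. The groups were taken from the diets in the sample labels and held 6 mice each, 12 of the 24 mice measured. All were 129/SvEvIL-10 KO males, which lack the anti-inflammatory cytokine interleukin-10, and whole proximal colon was taken at 3 months of age. The high diet held 5000 IU and the low diet 25 IU vitamin D3 per kg. The other 12 mice had been fed the high diet after weaning, as HH and LH pups of mothers on the high and the low diet. No wild-type mouse was analysed here, so both groups share the background of spontaneous colitis. Each array is named by its group and mother's label, and the 12 mice carried 12 different labels. Whether labels that share a number (8 and 8C, 10 and 10B in HL, 13 and 13A in LL) stand for related mothers is not given, so 6 mice a group may be fewer than 6 independent litters. The p-values measure the spread between these mice. RNA of each mouse was hybridized to 1 Illumina MouseWG-6 array, and values are log2 intensities after the authors' quantile normalization.

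Vitamin D acts through the vitamin D receptor, a nuclear receptor of the colonic epithelium and of immune cells that controls calcium handling, vitamin D breakdown and antimicrobial and inflammatory genes. A pup receives vitamin D from its mother through the placenta and milk, and a later difference between HL and LL mice would be one that outlasted weaning to a common diet. In the IL-10 KO colon, inflammation brings in macrophages, neutrophils and lymphocytes and alters the epithelium, so that in whole tissue more cells of a type and more RNA per cell cannot be told apart.

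No probe differed between HL and LL mice after adjustment. Of 34356 probes that passed the intensity filter, 0 passed limma's test (0% called, smallest adjusted p = 1), and the adjusted p was 1 for each gene named here. Without adjustment, 350 probes (1.02% of those tested) were higher and 320 (0.931%) lower in HL mice at p under 0.05. Among the 14804 probes detected on 6 or more of the 12 arrays there were 157 (1.06%). Detected means a detection score, as given with the deposited intensities, above 0.99. Of the probes tested, 14235 were detected on 0 of the 12 arrays. The methods' t-test gave 983 probes at an unadjusted p under 0.05 and 0 after Benjamini-Hochberg adjustment. The median log2 difference of all probes was 0.002. For the detected probes the 95% confidence interval of a difference reached 0.294 to either side at the median. It reached 0.625 at the 95th percentile. Each probe has its own width, narrower for probes with little spread between mice. With 6 mice a group, a difference smaller than a probe's own width was not detectable even without adjustment. Adjustment over all probes asks for more, and the 13 probes that differed by more than 1 did not pass either. The intestinal markers Car1, Aqp8, Slc26a3, Muc2, Krt20, Cdx2 and Actg2 were detected on all 12 arrays. The segment of the colon was not tested.

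The share of probes detected was 31.4% ± 5.5 in HL and 31.4% ± 5.37 in LL mice (SD, n = 6 each; exact permutation test, two-sided, p = 0.989). Mean raw intensity was 409 ± 83.6 and 425 ± 114 in the same order (SD, n = 6 each; exact permutation p = 0.799). In each group 1 array stood apart by its low share of detected probes, HL 2A with 21.2% and LL 3B with 21.9%, while the other 10 arrays had 28.6% to 36.3%.

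HL mice were no more like each other than like LL mice. Over detected probes, the mean distance between profiles, for which each probe was centred on its median and the correlation subtracted from 1, was 1.10 within HL, 1.08 within LL and 1.0 between the groups. The closest pair was HL 2A with LL 13 at 0.274, followed by HL 2A with LL 3B at 0.438 and HL 8C with LL 13A at 0.518. HL 10B lay closest to LL 6, at 0.666. In 4 of the 5 closest pairs an HL mouse was matched with an LL mouse, where 36 of all 66 pairs are between groups. HL 2A, LL 3B and LL 13 were also the arrays with the lowest share of probes detected, 21.2%, 21.9% and 28.6%. The part of that share in the distances was not tested.

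**Figure D1:**
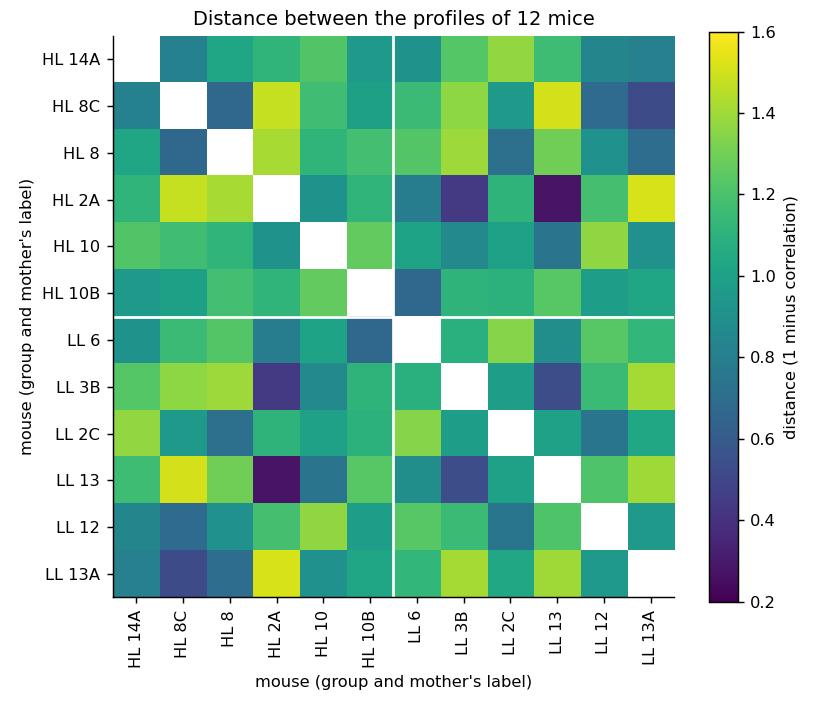
Distance between the log2 profiles of each pair of the 12 mice over detected probes (colour scale, 1 minus the correlation), with HL mice first and white lines between the groups. The darkest off-diagonal cell is HL 2A with LL 13 (0.274), and the blocks within a group are no darker than the block between groups.

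The largest differences among genes with a detected probe were found for heat shock genes, which had higher mean levels in HL mice. Heat shock factor 1 switches on these chaperones, which hold or refold damaged protein, by binding inverted repeats of GAA and TTC in their promoters. Hspa1a encodes the inducible Hsp70, Hsph1 encodes Hsp110, which exchanges its nucleotide, Chordc1 and Stip1 encode partners of Hsp90, and Bag3 encodes a cochaperone of Hsp70. Stretches of 3 of these promoters are shown for the letters that heat shock factor 1 is known to bind, in RefSeq sequence of mouse build GRCm38.p6. They run 5′ to 3′ along each gene's strand, with GAANNTTC and TTCNNGAA in capitals.
Hspa1a, chr17:34972223-34972290, minus strand: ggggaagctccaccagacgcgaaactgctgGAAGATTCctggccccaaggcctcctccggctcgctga
Hsph1, chr5:149636317-149636399, minus strand: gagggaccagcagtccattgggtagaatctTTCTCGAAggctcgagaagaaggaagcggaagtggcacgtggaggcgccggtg
Chordc1, chr9:18292233-18292286, plus strand: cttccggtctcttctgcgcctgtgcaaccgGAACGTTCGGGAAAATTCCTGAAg
Counted from the transcription start, the Hspa1a match began at base -104 and the first of 3 matches in the window of Hsph1, the one shown, at base -33, whereas in Chordc1 4 overlapping matches began at base -4 and ran across the start. Each motif is its own reverse complement, so both strands were searched, and the motifs can overlap. In windows of 250 bases before to 50 after a start, 12 of 21 genes in a list of chaperones held a match. Of all 27025 genes with a window 17.0% held one, and of all 32851 windows 15.1%. The list was made of chaperone genes inducible by heat shock factor 1, so a higher share was built in and says nothing about these mice. A match is only a description of these letters, and no match was found in the window of Stip1.

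Hspa1a had log2 intensities of 7.38, 8.79 and 10.19 (lowest, median and highest) in HL mice and 7.18, 7.49 and 8.86 in LL mice. The groups overlapped, but 3 HL mice lay above every LL mouse and 5 of the 6 LL mice were at 7.72 or lower. The mean was 8.90 ± 1.0 in HL and 7.66 ± 0.62 in LL mice (SD, n = 6 each), a log2 difference of 1.24 (standard error 0.43; limma, unadjusted p = 0.0142, adjusted p = 1). The promoter windows of Hspa1a and Hspa1b agree in 296 of 300 bases and the genes are near-identical copies, so their probes may not separate them. Both other probes of Hspa1a, each detected on 2 arrays, differed by 0.18 (limma, unadjusted p = 0.298) and 0.16 (limma, unadjusted p = 0.0272). Hspa1b had log2 intensities of 7.19, 7.59 and 9.21 in HL and 6.94, 7.17 and 8.51 in LL mice, with a difference of 0.48 (standard error 0.34; limma, unadjusted p = 0.187). Its other probe, detected on 4 arrays, differed by 0.39 (limma, unadjusted p = 0.00386).

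Hsph1 had log2 intensities of 10.08, 11.38 and 12.46 in HL and 9.43, 9.95 and 12.29 in LL mice, with a difference of 1.0 (standard error 0.51; limma, unadjusted p = 0.0749). The high LL mouse was LL 3B, the other 5 being at 10.35 or lower, and 4 LL mice lay below every HL mouse. Chordc1 was at 9.75, 10.48 and 10.60 in HL and 9.22, 9.66 and 10.64 in LL mice, with a difference of 0.60 (standard error 0.22; limma, unadjusted p = 0.0182). Again 4 LL mice lay below every HL mouse, and LL 3B lay above every HL mouse. Stip1 was at 9.74, 10.28 and 11.05 in HL and 9.62, 9.87 and 10.29 in LL mice, with a difference of 0.44 (standard error 0.18; limma, unadjusted p = 0.0323).

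A longer list of chaperone genes, the one used for the promoter windows, was written after these values were seen and is given as a description. Of its 25 measured members 22 were higher and 3 lower in HL mice, with a median log2 difference of 0.24, against 51.0% of all probes higher and a median of 0.002. Of the 23 members detected on 6 or more arrays 20 were higher and 3 lower, with a median of 0.30. Hspa1a, Chordc1 and Stip1 were the 3 of 25 members with an unadjusted p under 0.05, against 1.95% of all probes tested, and they were known when the list was written. After adjustment 0 passed. Hspa8, the constitutive Hsp70, differed by 0.40, Hsp90aa1, an inducible Hsp90, by 0.43 and Bag3 by 0.38. Fkbp4, an Hsp90-bound immunophilin, differed by 0.36, the small heat shock protein gene Hspb1 by 0.36 and the Hsp40 gene Dnajb1 by 0.31. The 3 lower members were Hspe1 at -0.18, Hspa4 at -0.17 and Ptges3 at -0.11.

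Averaged over the 25 chaperone genes, the log2 level was 9.23 to 9.72 in HL mice and 9.09 to 9.60 in LL mice. All 6 HL mice lay above 5 of the 6 LL mice, which were at 9.19 or lower, and the remaining mouse LL 3B was exceeded only by HL 2A and HL 10B. HL 2A and LL 3B were also the arrays with the lowest share of probes detected, and the part of that share in these levels was not tested. Without both of them the list median was 0.26 and the difference of Hspa1a was 1.23, close to the values over all 12 mice. With neqc background correction the difference of Hspa1a was 2.24. Without HL 10B and LL 6 together, the list median was 0.18. Immediate early genes, which also rise with tissue stress, had differences of -0.12 (Egr3) to 0.14 (Junb), with Fos at 0.02, Dusp1 at -0.02 and Jun at 0.07. Of the 16 tested members of the list of immediate early and heat shock genes 13 were higher, and the 6 heat shock members were all among them.

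Cirbp encodes an RNA-binding protein induced by cold and lowered by heat. It was named for its small p-value in the interaction given below, and had a lower mean in HL mice. It was at 7.20, 7.43 and 7.78 in HL and 7.52, 7.77 and 7.88 in LL mice, with 4 HL mice below every LL mouse. The difference was -0.28 (standard error 0.10; limma, unadjusted p = 0.0163), and its probe was detected on 8 of the 12 arrays. In pups fed high the direction was opposite, with a median of 7.82 in HH and 7.59 in LH mice. A link between Cirbp and the chaperone levels was not tested.

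**Figure D2:**
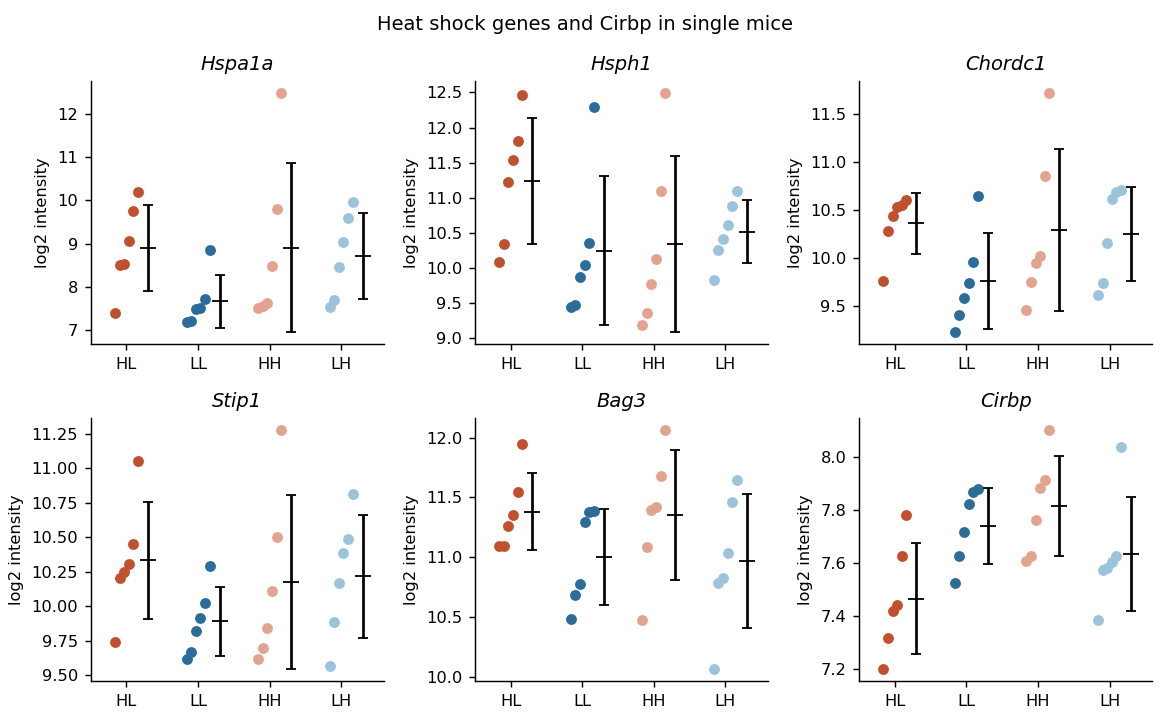
Log2 intensity of 5 heat shock genes and Cirbp in each mouse (points) of the 4 groups of 6, with the mean and SD (black). The mean of HL mice lies above that of LL mice for the heat shock genes, LL 3B being the high LL point of Hspa1a and Hsph1, and below it for Cirbp. An HH mouse had the highest level of each heat shock gene.

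HH and LH mice are other mice than HL and LL mice, but 2 mothers' labels recur in HH and HL (10 and 10B) and 2 in LH and LL (3B and 13). In pups fed the high diet after weaning, the chaperone list also leaned to the mother's high diet, with 21 members higher and 4 lower in HH than in LH mice and a median of 0.12. Its mean was 9.46 ± 0.427 in HH and 9.34 ± 0.198 in LH mice (SD, n = 6 each). The medians of the mice ran the other way, 9.29 in HH and 9.43 in LH mice. The mean of HH mice was raised by HH 10B, the highest mouse at 10.22, and its part in the count of members was not tested. The log2 difference of HH minus LH mice was 0.19 (standard error 0.68) for Hspa1a, -0.18 (standard error 0.52) for Hsph1, 0.04 for Chordc1 and -0.04 for Stip1. For Hspa1b and Bag3 it was 0.42 (standard error 0.44) and 0.38 (standard error 0.25), close to the values in pups fed low. The median of Hspa1b was nevertheless lower in HH (7.55) than in LH mice (7.67), with HH 10B at 10.22. That of Bag3 was 11.41 in HH and 10.93 in LH mice. The test of the difference itself, the interaction of mother's and pup's diet, gave unadjusted p-values of 0.286 for Hspa1a, 0.126 for Hsph1, 0.215 for Chordc1 and 0.182 for Stip1 (limma, all 24 arrays). HH 10B had the highest Hspa1a level of all 24 mice, 12.49, and LL mice stood lowest, with a median of 7.49.

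Oas2 and Bbs9 were the only genes with a detected brightest probe whose groups did not overlap. Of all 34356 probes tested, 27 (0.0786%) had every HL mouse above every LL mouse and 18 (0.0524%) had every HL mouse below, and 5 of the 14804 detected probes (0.0338%) were of either kind. Oas2, an interferon-induced enzyme that senses double-stranded RNA, was at 7.46, 7.54 and 7.70 (lowest, median and highest) in HL and 7.13, 7.33 and 7.46 in LL mice. It was detected on 8 of the 12 arrays. Its LL levels lay near those of Il6, 7.14 to 7.33 in LL mice, which was detected on 0. Its difference was 0.25 (standard error 0.07; limma, unadjusted p = 0.00298), and it was 0.24 (standard error 0.08) between HH and LH mice. Bbs9, a subunit of the BBSome that carries proteins to cilia, was at 7.31, 7.49 and 7.54 in HL and 7.62, 7.67 and 7.77 in LL mice. Its difference was -0.21 (standard error 0.05; limma, unadjusted p = 7.24e-04), and that of HH minus LH mice was -0.06 (standard error 0.07). This probe of Bbs9 was detected on 10 arrays, and the other, detected on 0 arrays, differed by 0.03.

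Several more genes ranked by p on the higher side. Rbp2, the retinol-binding protein of enterocytes, was at 7.73, 7.87 and 8.50 in HL and 7.13, 7.53 and 7.85 in LL mice. Its difference was 0.44 (standard error 0.14; limma, unadjusted p = 0.00869), and a second probe detected on 11 arrays differed by 0.24 (limma, unadjusted p = 0.0245). C2cd4a was at 10.44, 10.91 and 11.27 in HL and 10.36, 10.48 and 10.87 in LL mice, with 4 HL mice above every LL mouse. Its difference was 0.40, and a second probe detected on 12 arrays differed by 0.15 (limma, unadjusted p = 0.444). Slc7a6, a cationic amino acid transporter, differed by 0.16, the RNA-binding protein gene Celf1 by 0.20, and other probes of Celf1 detected on 12 and 10 arrays by 0.22 and 0.08 (limma, unadjusted p = 0.578 for the latter). The Golgi mannosidase gene Man1a2 differed by 0.25 and by 0.06 at a second probe detected on 9 arrays, the scaffold gene Whrn by 0.24 and Rif1, which sets the timing of DNA replication, by 0.16. For these 5 genes 3 or 4 HL mice lay above every LL mouse.

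On the lower side Klrd1, the CD94 chain of NK cell receptors, was at 7.51, 7.77 and 7.96 in HL and 7.74, 8.24 and 8.96 in LL mice. Its difference was -0.53 (standard error 0.17; limma, unadjusted p = 0.00731), and 5 LL mice lay above every HL mouse. Cdk5rap1, which modifies mitochondrial tRNA, was at 7.81, 7.92 and 7.99 in HL and 7.97, 8.12 and 8.36 in LL mice. A second probe of Cdk5rap1 detected on 10 arrays differed by 0.09, opposite to the -0.23 of the brightest probe. Echs1, an enzyme of mitochondrial fatty acid oxidation, was at 10.58, 10.74 and 10.90 in HL and 10.80, 10.93 and 11.02 in LL mice. Its difference was -0.19, and that of the complement inhibitor gene Cd59b was -0.22, with -0.16 for Tbc1d9b, -0.22 for Tmem218 and -0.18 for Zc4h2. A second probe of Tmem218 detected on 10 arrays differed by 0.04, in the opposite direction.

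**Figure D3:**
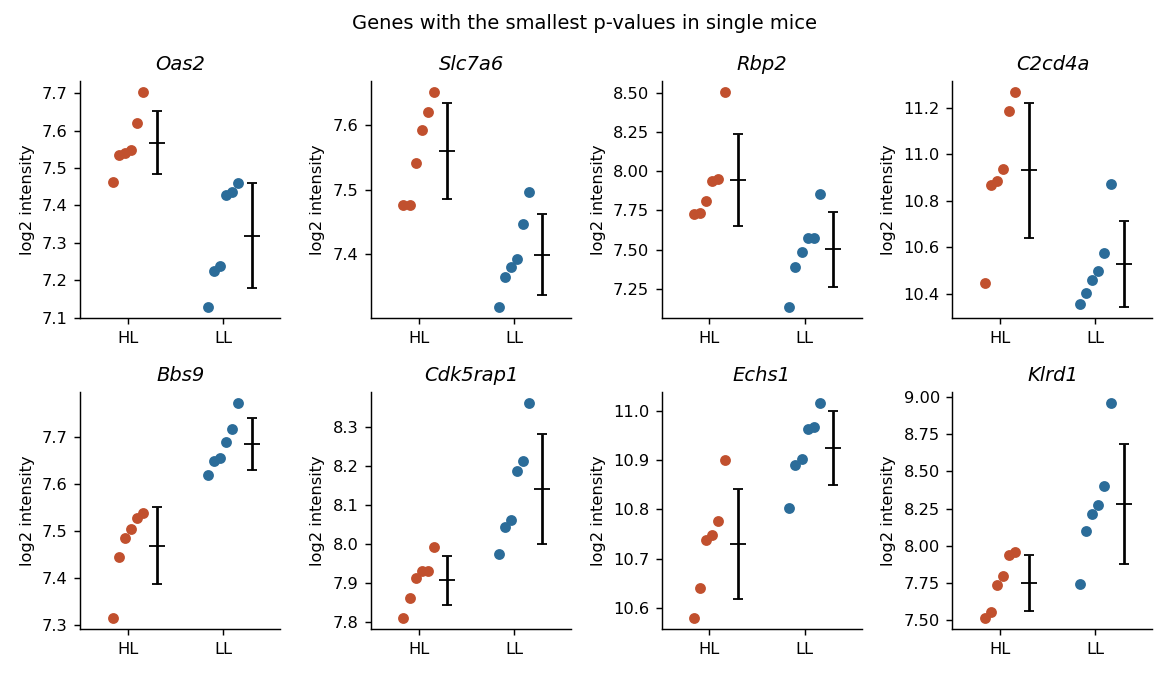
Log2 intensity of 8 genes with the smallest p-values in each HL and LL mouse (points), with the mean and SD (black). The groups do not overlap for Oas2, lowest HL mouse at 7.46, nor for Bbs9, highest HL mouse at 7.54, and they overlap for the other 6 genes.

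The largest lower differences belonged to genes with a wide spread among mice of the same group. Lypla1, a thioesterase, was at 8.21, 8.86 and 11.07 in HL and 8.28, 9.89 and 10.69 in LL mice, a difference of -0.59 (standard error 0.50; limma, unadjusted p = 0.26). A second probe of Lypla1 detected on all 12 arrays differed by -0.13. Ndufb4, a subunit of respiratory complex I, differed by -0.56 (standard error 0.44; limma, unadjusted p = 0.227). Lypla1 and Ndufb4 were both highest in HL 2A. The X-linked gene Xlr4a was at 8.53, 9.12 and 9.51 in HL and 9.12, 9.48 and 10.76 in LL mice, with 3 HL mice below every LL mouse (limma, unadjusted p = 0.0415). Over all probes, 13 differed by more than 1 on the log2 scale, and 12 of these are probes with no gene symbol here.

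The mRNA of the receptor itself, Vdr, was at 10.27, 10.89 and 11.16 in HL and 10.13, 10.82 and 11.24 in LL mice. The groups overlapped almost fully, and the difference was 0.05 with a 95% confidence interval of -0.41 to 0.52 (exact permutation test, two-sided, p = 0.781). Both other probes of Vdr had a difference of -0.07. Il6 was detected on 0 arrays, at 7.22 ± 0.09 in HL and 7.25 ± 0.07 in LL mice (SD, n = 6 each; exact permutation test, two-sided, p = 0.539, where 0.00216 is the smallest p that 6 against 6 mice allow). At this level no difference in Il6 mRNA was detectable.

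Of 12 tested genes of the vitamin D receptor and vitamin D metabolism 7 were higher and 5 lower in HL mice, with a median log2 difference of 0.03. Vitamin D targets of the intestine numbered 22 and were divided evenly, 11 on each side, with a median of 0.004. Cyp24a1, the enzyme that inactivates vitamin D, and S100g, the calcium carrier calbindin-D9k, were detected on 0 of the 12 arrays, and the calcium channel gene Trpv6 on 4. Txnip, a thioredoxin inhibitor that vitamin D can raise, was at 12.31 ± 0.28 in HL and 12.12 ± 0.37 in LL mice (SD, n = 6 each; limma, unadjusted p = 0.296). The Il10 probe, whose place in the disrupted gene is not known here, was at 7.80 ± 0.15 in HL and 7.64 ± 0.12 in LL mice (SD, n = 6 each; limma, unadjusted p = 0.0682) and was detected on 10 arrays. It was higher by 0.19 in HH than in LH mice.

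The median difference of each gene list was smaller than the spread (SD) of the list's mean between mice. For 22 of the 30 lists the median reached or crossed 0 when 1 mouse was left out. The difference in list mean was not small beside that spread for every list. For immediate early and heat shock genes it was 0.25, with SDs of 0.19 in HL and 0.19 in LL mice. For oxidative phosphorylation it was -0.04, with SDs of 0.05 and 0.04. Genes of colitis inflammation had lower mean levels in HL mice, 8.97 ± 0.30 against 9.10 ± 0.21 in LL mice (SD, n = 6 each). Of 41 tested members 32 were lower and 9 higher, with a median of -0.08, and 27 of the 33 detected members were lower, with a median of -0.16. At an unadjusted p under 0.05 there were 0 members. The size of the median depended on the processing, and with neqc background correction it was -0.21, with 32 lower and 9 higher. Il1b, a cytokine of activated macrophages, was at 7.55, 8.73 and 9.33 in HL and 7.99, 9.01 and 9.94 in LL mice, a difference of -0.40 (standard error 0.34; limma, unadjusted p = 0.254). Mmp7, the matrilysin of the epithelium, differed by -0.37, the neutrophil chemokine gene Cxcl2 by -0.41 and Reg3g, a bactericidal lectin, by -0.20. Without HL 10B, 23 of the 41 were lower and 18 higher and the median was -0.02, without HL 2A and LL 3B together 29 were lower and the median was -0.04, and without LL 6 the median was -0.16. In HH minus LH mice 29 of the 41 were lower and 12 higher, with a median of -0.07.

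HL 10B and LL 6 stood apart from their groups in the same way. HL 10B had a mean of 8.70 over the detected inflammation genes, against 9.41 to 9.64 in the other HL mice, and LL 6 had 9.09 against 9.50 to 9.82 in the other LL mice. Smooth muscle markers were at 11.10 in HL 10B and 11.14 in LL 6, and at 10.17 to 10.48 in the other 10 mice. The part of this tissue makeup in the inflammation values was not tested. With both left out, 28 of the 41 inflammation genes were lower, with a median of -0.08.

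Macrophage and neutrophil markers were lower for 16 of 19 tested members, with a median of -0.09, and for all 11 detected members. S100a9, a neutrophil calcium-binding protein, differed by -0.52 (standard error 0.66), the macrophage elastase gene Mmp12 by -0.51 (standard error 0.40) and the G-CSF receptor gene Csf3r by -0.14, all with overlapping groups. The list median was -0.02 without HL 10B, -0.02 without HL 2A and LL 3B together, -0.03 without LL 3B and -0.17 without LL 6. With neqc it was -0.16. In HH minus LH mice 12 of these markers were higher and 7 lower, with a median of 0.04.

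The remaining cytokine and bone marker genes showed no difference beyond the spread between mice. Tnf was at 8.01 ± 0.40 in HL and 8.11 ± 0.32 in LL mice (SD, n = 6 each; limma, unadjusted p = 0.607), and a second probe detected on 11 arrays differed by 0.16, in the opposite direction. Ifng differed by 0.04 and by -0.05 at a second probe detected on 6 arrays, Tnfsf11, the osteoclast factor RANKL, by -0.09 and its decoy receptor gene Tnfrsf11b by 0.01. Il1a and Il17a, detected on 4 arrays and 1 array, differed by -0.12 and -0.14. Of all 8 genes in this list 2 were higher and 6 lower, with a median of -0.09 that was -0.23 with neqc.

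Of 26 TNF-alpha and NF-kappaB targets 11 were higher and 15 lower, with a median of -0.02, or 14 higher and 12 lower with a median of 0.04 without HL 10B. In HH minus LH mice 21 of the 26 were lower, with a median of -0.12. Birc3, an inhibitor of apoptosis induced by NF-kappaB, was at 7.04, 7.36 and 7.53 in HL and 7.24, 7.74 and 8.03 in LL mice. Of the LL mice 4 lay above every HL mouse (difference -0.35, standard error 0.15; limma, unadjusted p = 0.0313). Type I interferon and antiviral genes were higher for 17 of 23, with a median of 0.03, and 2 had an unadjusted p under 0.05, Oas2 and Mx2, against 1.95% of all probes tested. With each array scaled to its median 12 were higher and 11 lower, with a median of 0.001. Oasl2, a related synthetase-like gene, was at 10.19 ± 0.22 in HL and 9.94 ± 0.24 in LL mice (SD, n = 6 each; limma, unadjusted p = 0.0627), and it differed by 0.39 between HH and LH mice. A second probe of Oasl2 detected on 8 arrays differed by -0.02. Irf9, a subunit of the interferon-activated transcription factor, differed by 0.13.

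Cholesterol synthesis had the lowest median of the 30 lists, -0.17, with 14 of 16 genes lower, all 16 detected and 0 at an unadjusted p under 0.05. Pmvk, which phosphorylates mevalonate phosphate, was at 7.02, 7.82 and 8.20 in HL and 7.82, 8.00 and 8.19 in LL mice, with 3 HL mice below every LL mouse. Lss, the lanosterol synthase gene, was at 8.17, 8.58 and 9.43 in HL and 8.63, 8.98 and 9.20 in LL mice, with 4 HL mice below every LL mouse. For both the single mouse HL 8 lay above every LL mouse. The list median was -0.29 without HL 8 and -0.10 without HL 2A. Mvd, the next enzyme after Pmvk, differed by -0.23, and by -0.27 between HH and LH mice.

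Epithelial markers were divided. Colonocyte markers were higher for 20 of 28, with a median of 0.08, where the keratin gene Krt8 differed by 0.14 and the cadherin gene Cdh17 by -0.31. Without LL 3B 13 were higher and 15 lower, and with each array scaled to its median 15 were higher and 13 lower. Goblet cell markers were lower for 11 of 15, with a median of -0.05, but 8 were higher and 7 lower without LL 6 (median 0.02), and without HL 10B the median was -0.18. Lower means were found for the mucin-glycosylating enzyme gene Galnt12 by -0.26, the disulfide isomerase gene Agr2 by -0.24 and Retnlb, a goblet cell peptide induced by bacteria, by -0.18. Bile acid handling genes were divided, 6 higher and 6 lower, with Fabp6, an ileal bile acid carrier, at -0.25 and Slc51b, a basolateral transporter subunit, at -0.13. Epithelial antimicrobial and acute-phase genes were lower for 14 of 20, with a median of -0.05. Without HL 10B they were divided evenly (median -0.0003), without HL 8 the median was -0.14 and with neqc it was -0.15.

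B cell and plasma cell markers were higher for 9 of 16, with a median of 0.07, and for 9 of the 11 detected. The median was -0.01 without LL 6 (7 higher, 9 lower), -0.0015 without HL 10 and 0.0015 without LL 12. The plasma cell regulator gene Irf4 differed by 0.14 and Tnfrsf17, the plasma cell receptor BCMA, by 0.14, both highest in HL 10. Fibroblast and matrix genes were higher for 13 of 16, with a median of 0.06, but for 5 without HL 10B (median -0.04) and 7 without LL 13 (median -0.04). Smooth muscle markers were higher for 9 of 16, with a median of 0.04, which was -0.11 without HL 10B and 0.14 without LL 6. T cell markers were lower for 9 of 16, with a median of -0.02 that became 0.005 without LL 13. Interferon-gamma response and MHC class II genes were higher for 13 of 22, with a median of 0.02 that was -0.04 without HL 8 and 0.10 without HL 10B. The other 12 lists, among them crypt proliferation, imprinted genes, DNA methylation and Polycomb genes, oxidative phosphorylation, the circadian clock and markers of nearby adipose tissue and pancreas, had medians of -0.02 to 0.05. Exocrine pancreas markers had a mean of 11.78 in HL 8C and 11.19 in LL 13A, and 7.83 to 9.17 in the other 10 mice, and the median of that list was -0.42 without HL 8C and 0.36 without LL 13A.

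**Figure D4:**
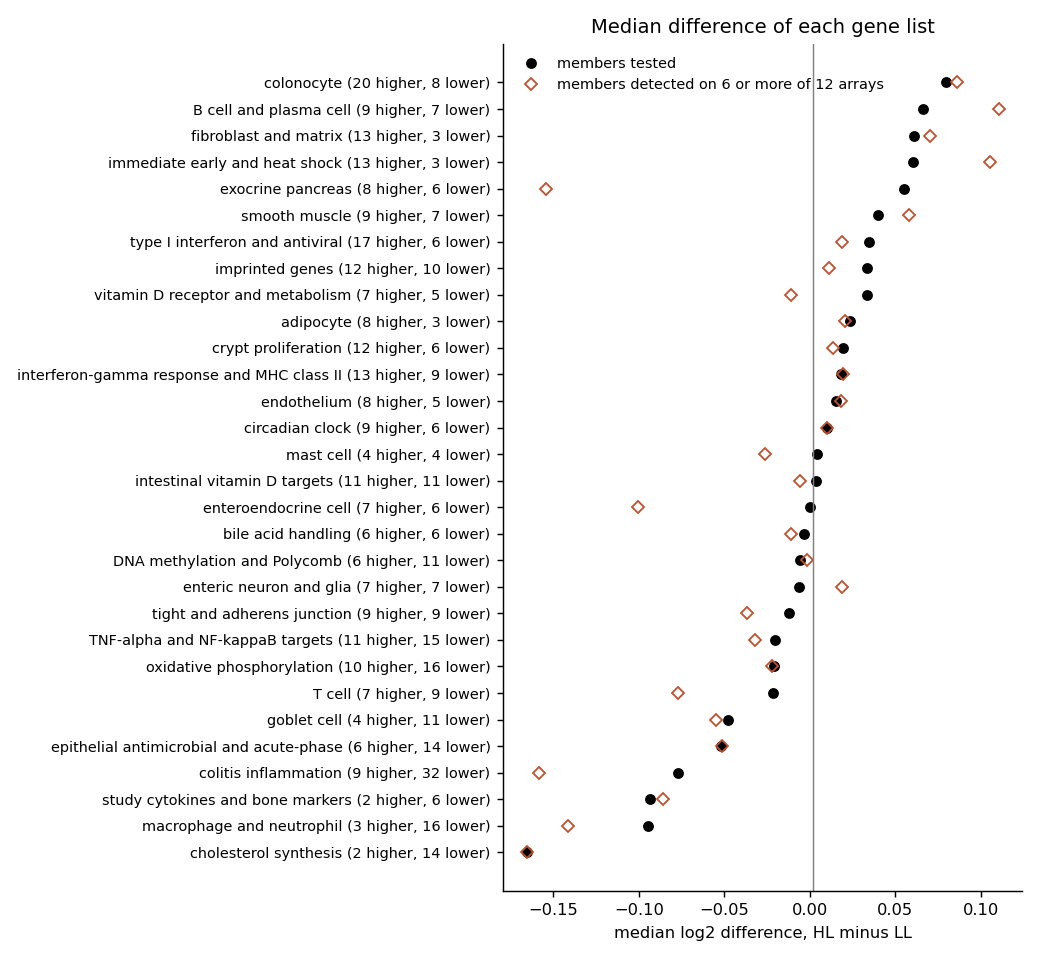
Median log2 difference, HL minus LL, of each of the 30 gene lists for the members tested (filled circles) and those detected on 6 or more of 12 arrays (open diamonds), with the number higher and lower in HL mice. The grey line is the median of all probes tested (0.002). The lists run from cholesterol synthesis (-0.17) to colonocyte markers (0.08).

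Whether the mother's diet acted differently by the pup's own diet was tested across all 24 arrays. The interaction passed for 0 of 37654 probes (0% called, limma), and 1107 (2.94%) had an unadjusted p under 0.05. This fit took all mice as independent, although 4 mothers' labels each held a mouse in 2 groups. With the mother's label as a random block, 0 probes passed and 1290 had an unadjusted p under 0.05. Among detected genes, Dgat2, which makes triglyceride, had one of the smallest p-values on the positive side, with a difference of 0.17 between HL and LL and -0.33 between HH and LH mice (interaction, unadjusted p = 0.00583). Chchd4, which oxidizes imported mitochondrial proteins, differed by 0.25 and -0.16 in the same order, Cluh, which binds mRNAs of mitochondrial proteins, by 0.13 and -0.38, and Git1 by 0.17 and -0.15. On the negative side Cirbp differed by -0.28 in pups fed low and 0.18 in pups fed high (interaction, unadjusted p = 0.00615). Tmem218 differed by -0.22 and 0.08. Mthfsd differed by -0.06 and 0.18. For Bnip2 the HL and LL mice had nearly the same level, 8.30 ± 0.09 and 8.31 ± 0.07 (SD, n = 6 each), and the difference of 0.28 lay between HH and LH mice.

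**Figure D5:**
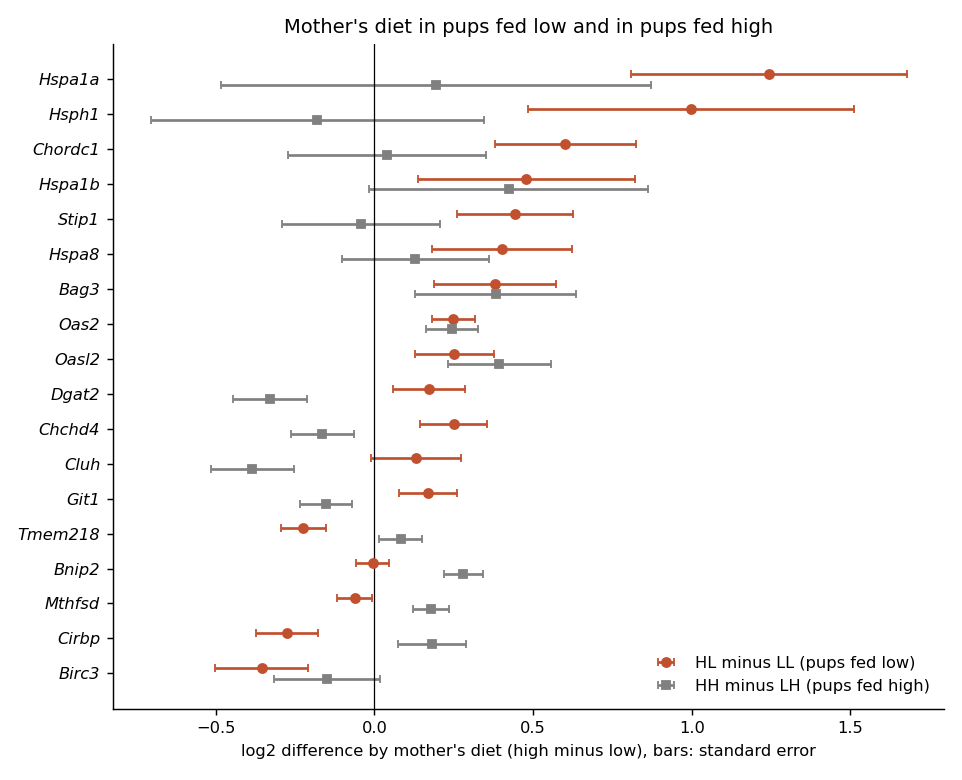
Log2 difference by mother's diet (x axis, high minus low, with standard error) of 18 genes in pups fed low (HL minus LL, circles) and in pups fed high (HH minus LH, squares). Hspa1a reaches 1.24 in pups fed low and 0.19 in pups fed high with overlapping errors, Oas2 is at 0.25 and 0.24, and Dgat2 and Cirbp have opposite signs in the 2 settings.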

How the data were processed

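Proximal colon RNA of 24 mice was measured on Illumina MouseWG-6 arrays, of which the 12 HL and LL arrays were compared. The authors deposited raw signal intensity and a detection score, a fraction from 0 to 1, for each of 45281 probes, and log2 values after quantile normalization. The methods also name centring of each probe on its median, which these values do not carry. Taking log2 of the deposited intensities and quantile normalizing them again gave the same log2 values within 0.000415. Probes above the 20th percentile of the array in 80% of the arrays of either group were kept, as in the study's methods. Differences were fitted with limma 3.58.1 in R 4.3.3 and adjusted by Benjamini-Hochberg. The fit was tested on simulated data. The GEO platform annotation gave 34885 probes a single gene symbol, 18 several and 10378 none, and 524 of 564 list genes were matched. The brightest probe stood for a gene. Named genes were the 8 with the smallest p and the 6 with the largest difference on each side, up to 3 per list, the study's cytokines and vitamin D genes, and 4 a side for the interaction, mostly detected on 6 or more arrays. Other chaperone and immediate early genes, chosen after their values were seen, are named too. The comparison and gene lists were chosen with earlier results of these data known. Alternatives were the methods' t-test, all 24 arrays in the fit, array weights, the detected share as a term, other filters, neqc, median scaling, leaving out mice and, for the interaction, the mother's label as a random block, which was added after seeing the data. Median scaling moved the median of all probes by less than 0.01. Some list medians moved more, from -0.05 to -0.13 for goblet cell markers and from 0.08 to 0.02 for colonocyte markers. Chip and scan date are not given in the sources used here, so batches were not tested. The number of arrays limits the precision.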

Additional observations from a re-analysis of the deposited data

Results flagged for a closer look

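In sets of 6 mice, a mouse is listed where it stood apart from the nearest other mouse by more of its group's range than Dixon's 95% critical value. This held in 24 of 196 sets, and chance gives about 1 in 20, although the sets share mice and genes. LL 3B was high in Hspa1a at 8.86, Hspa1b at 8.51, Hsph1 at 12.29 and Xlr4a at 10.76. HL 2A was high in Rbp2 at 8.50, Lypla1 at 11.07, Ndufb4 at 9.94 and Git1 at 7.76, and its mean of the vitamin D receptor and metabolism list was low at 9.44. These are the arrays with the lowest share of probes detected, 21.9% and 21.2%.

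HL 10B was low in Mmp12 at 7.86, in the mean of the colitis inflammation list at 8.70, the macrophage and neutrophil list at 8.56, the type I interferon and antiviral list at 8.56 and the list of TNF-alpha and NF-kappaB targets at 8.97. LL 6 was low in the study's cytokines and bone markers at 7.53 and in the T cell list at 8.13. The smooth muscle list was high in both, at 11.10 in HL 10B and 11.14 in LL 6.

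HL 10 was high in the T cell list at 9.01 and the B cell and plasma cell list at 9.30. HL 14A was high in Il10 at 8.09, HL 8 in the crypt proliferation list at 9.06 and HL 8C in the exocrine pancreas list at 11.78. LL 13 was low in the fibroblast and matrix list at 8.70.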

How the results depend on the processing

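The count of probes past adjustment was 0 under each alternative run. At an unadjusted p under 0.05 the 670 probes became 46 with only detected probes, 1205 with array weights and 1073 with the detected share as a term, and 604 to 1110 when 1 mouse was left out, the highest without HL 2A. The 1107 probes of the interaction became 132 with only detected probes. Fewer probes are tested under that filter. The cause of the other moves was not tested. No paired analysis was possible because the 6 HL and 6 LL mice share no mother's label. Median scaling moved the oxidative phosphorylation median from -0.02 to -0.13, and the other list medians moved by less than the spread between mice, although 22 of 30 reached or crossed 0 without 1 mouse.

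Of 66 genes, 58 kept their direction under all 19 alternatives. Many of them were named for a small p or a large difference in the same mice, so a kept direction was partly built in. The fit with all 24 arrays cannot change a difference, only its standard error. With array weights S100a9 was at 0.12, Ifng at -0.031, Tnf at 0.025 and Bnip2 at 0.0061. With median scaling Vdr was at -0.013, Ifng at -0.0039 and Tnfrsf11b at -0.0041, and with neqc Cyp24a1 was at -0.015. Leaving out 1 mouse gave -0.0755 to 0.1675 for Vdr, -0.0132 to 0.085 for Ifng, -0.2147 to 0.0324 for Tnf, -0.1355 to 0.1057 for Tnfrsf11b, -0.0194 to 0.035 for Cyp24a1, -0.0421 to 0.1599 for Trpv6 and -0.0283 to 0.0209 for Bnip2. Without both HL 2A and LL 3B, an alternative chosen after seeing the data, Tnf was at 0.017, Trpv6 at -0.0367 and Bnip2 at 0.0424, and without both HL 10B and LL 6 Tnfrsf11b was at -0.0268. Hspa1a stayed higher in HL mice, at 0.98 to 1.55 without 1 mouse and 2.24 with neqc.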
